A study of Drosophila melanogaster with 12 samples.

Results

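The ecdysteroid kinase-like genes encode a family of predicted small-molecule kinases that is large in insects. The family takes its name from the silkworm enzyme that attaches a phosphate to ecdysteroids, the steroid hormones of moulting, and so stores them in an inactive form. The substrates of most Drosophila melanogaster members are not known, and several genes of the family have been linked to tolerance of plant or synthetic toxins. The genes were chosen by name, from a list of 47 family members set against the gene symbols of the array. Of these, 41 had a probe set of their own, always 1 each, among 12793 genes named on the array, and 33 of the 41 reached a log2 expression value of 4 on at least 3 of the 12 arrays and were tested. Values under that level are not told apart from background here.

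The arrays carry RNA of third-stage (L3) larvae grown at 25 °C, in 4 groups of 3. Wing discs, the larval epithelia that form the wings, carried the nub-Gal4 driver alone or nub-Gal4 with UAS-MiT, a transgene for the transcription factor MiT. The driver acts in the wing-forming region and not in the whole disc, and both disc groups carry it. The other samples pool hindgut with Malpighian tubules, which are the insect's excretory organs, of wild type or of MiT mutants (MiTTZ2/Df(4)TZ), and are called hindgut-tubule samples. That genotype is the one in the study's design text, while the array titles name the mutant EMSTZ2. The sources used here give no strain for the wild type, so genotype and genetic background cannot be told apart. The study looked for loci that respond to gain of MiT in the disc and, in the opposite direction, to its loss in the hindgut-tubule tissue.

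MiT appears in the files as Mitf, whose log2 values were 7.05, 6.55 and 6.16 in wild-type and 4.54, 4.19 and 4.51 in mutant hindgut-tubule samples. In the discs it averaged 8.11 ± 0.10 with the transgene label and 8.0 ± 0.13 without (SD, n = 3), so these are called discs labelled as overexpressing MiT; whether the probe set reads the transgene was not tested. Replicate arrays correlated at 0.982 to 0.990 within the disc groups and at 0.943 to 0.986 within the hindgut-tubule groups. The mean SD of a probe set was 0.37 in the mutant and 0.34 in the wild-type hindgut-tubule group, against 0.18 and 0.15 in the control and labelled discs. The arrays numbered 2 had the lowest correlations in both hindgut-tubule groups. Of 15 midgut markers 3 passed the filter (alphaTry, LManII and Mal-A2), and 12 did not, among them betaTry and Jon25Bi. The digestive enzyme gene alphaTry read 6.54 to 9.95 on the hindgut-tubule arrays and at most 2.40 in the discs, LManII 7.72 to 8.73 and 8.40 to 9.09, and Mal-A2 2.47 to 6.06 and at most 2.40. None of the 3 passed in the mutant or the disc comparison. Means of 8 fat body markers, by contrast, ran from 11.58 to 13.37 on the hindgut-tubule arrays.

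The family was read mostly in the hindgut-tubule samples. Of the 33 tested members, 32 reached the level of 4 on at least 3 of the 6 hindgut-tubule arrays and 10 did so on the disc arrays: CG10550, CG10559, CG13659, CG14314, CG2004, CG31098, CG31102, CG31370, CG31436 and CG5126. A further 23 lay between 2.04 and 3.93 on all 6 disc arrays and entered the test only through the hindgut-tubule samples, so their difference between tissues follows from the filter, except for CG11893, which passed through the mutant arrays. At the edge of the filter, CG11893 and CG33510 reached the level on 3 arrays, whereas CG10562 did so on 1 and was left out. The other members left out were CG13813, CG1561 (named pkm in the RefSeq table), CG18765, CG31104, CG5644, CG7135 and CG9497.

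**Figure D1:**
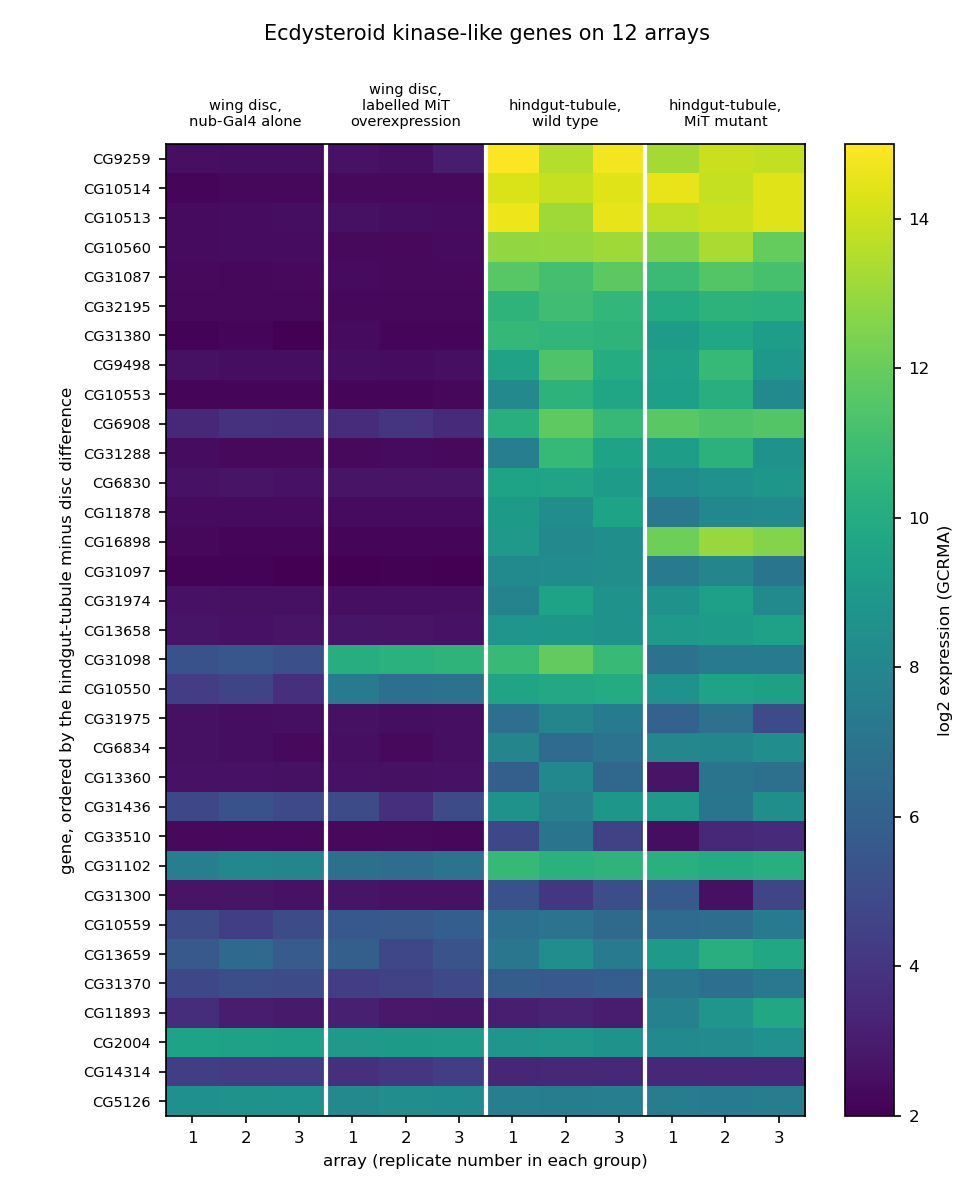
Log2 GCRMA expression (colour) of the 33 tested ecdysteroid kinase-like genes (rows) on the 12 arrays (columns, 3 per group, numbered as in the labels); rows are ordered by wild-type hindgut-tubule minus control disc. Most rows are dark on the 6 disc arrays and bright on the 6 hindgut-tubule arrays, CG31098 is bright in the labelled MiT discs, and CG11893 is bright in the mutant samples alone. Colours compare arrays within a row, not genes.

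Between wild-type hindgut-tubule samples and control discs, 29 members were higher in hindgut-tubule, 3 were lower and 1 did not pass the threshold, an adjusted p of 0.05. Over all tested probe sets 77.6% passed in this contrast, 30.0% higher and 47.6% lower; it mixes tissue and genotype. CG9259 read 14.91, 13.54 and 14.75 in wild-type hindgut-tubule samples and 2.46 to 2.54 in control discs, a difference of at least 1349-fold (limma adjusted p = 1.68e-10). CG10514 was at least 1147-fold, CG10513 at least 1108-fold, CG10560 at least 503-fold and CG31087 at least 181-fold higher. The groups of each of these genes lay far apart, but each passed the filter only through the hindgut-tubule arrays, so these differences follow from the filter. The same holds for most of the 29 members that were higher, so no conclusion is drawn from their count. In bulk tissue, more cells of a type and more RNA per cell cannot be told apart.

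The exceptions were few. CG5126 was lower in wild-type hindgut-tubule samples, at 7.58, 7.52 and 7.61 against 8.51, 8.67 and 8.62 in control discs (log2 difference -1.03, SE 0.10, limma adjusted p = 3.12e-06). CG2004 was lower too (-0.65, adjusted p = 0.000875). CG14314, whose hindgut-tubule values of 3.38 to 3.52 were under the level of 4, was at least 1.24-fold lower (adjusted p = 0.000175). It reached that level on disc arrays alone, so this difference follows from the filter. CG11893 was the member without a difference, with 2.97 to 3.31 in wild-type hindgut-tubule samples and 2.95 to 3.69 in control discs (adjusted p = 0.837), under the level of 4 on all 6 arrays.

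In the wing discs, 3 members were higher and 1 was lower in the discs labelled as overexpressing MiT, and 29 did not pass the threshold. These 4 make up 12.1% of the tested members, beside 12.4% of all tested probe sets (7.13% higher and 5.27% lower), so their share lay close to the background. All 4 were among the 10 members measured in the discs, and the other 6 of the 10 did not pass. At an unadjusted p under 0.05 there were 6 members, and the share of all tested probe sets at that level was not computed. Nothing in the labels says that replicates are separate dissections or cultures, so p-values measure the spread between these samples, which may be technical.

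CG31098 rose most among the members. It read 5.30, 5.5 and 5.15 with the driver alone and 10.08, 10.32 and 10.47 in the labelled MiT discs. All 3 labelled arrays lay more than 4 log2 units above all 3 controls and close to the wild-type hindgut-tubule arrays, which read 10.83, 11.89 and 10.77. The log2 change was 4.98 (SE 0.28), a 31.5-fold rise with a limma adjusted p of 2.54e-06.

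CG10550 read 4.34, 4.67 and 3.79 with the driver alone and 7.39, 6.73 and 6.87 in the labelled MiT discs. The groups did not overlap, and the rise of 2.73 (SE 0.29) was 6.65-fold (limma adjusted p = 0.000212). In wild-type hindgut-tubule samples the same gene read 9.57, 9.85 and 10.01, above both disc groups. CG10559 rose by 0.92 (adjusted p = 0.0298), and this call was lost without control array 2 or without any 1 of the labelled MiT arrays, with adjusted p up to 0.111. It was also lost with the replicate number as a block (adjusted p = 0.0595) and without the filter (0.0707), and it did not pass in the authors' deposited table (0.108).

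CG31102 moved the other way. It read 7.56, 8.09 and 7.90 with the driver alone and 6.80, 6.64 and 6.96 in the labelled MiT discs, a fall of 2.07-fold (log2 change -1.05, SE 0.16, limma adjusted p = 0.00188). Each labelled array lay under each control. Changes of the 29 members that did not pass ran from -0.58 to 0.24, with adjusted p from 0.058 to 1.0. CG2004 (-0.34, adjusted p = 0.129) and CG9259 (0.24, adjusted p = 0.753), of these the highest in mean over all 12 arrays, hindgut-tubule included, were among them, the latter under the level of 4 in every disc. A fit to the 6 disc arrays alone, in which 30.0% of all tested probe sets passed, kept all 4 members and added CG2004 (adjusted p = 0.0227) and CG5126 (adjusted p = 0.0368), both lower.

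**Figure D2:**
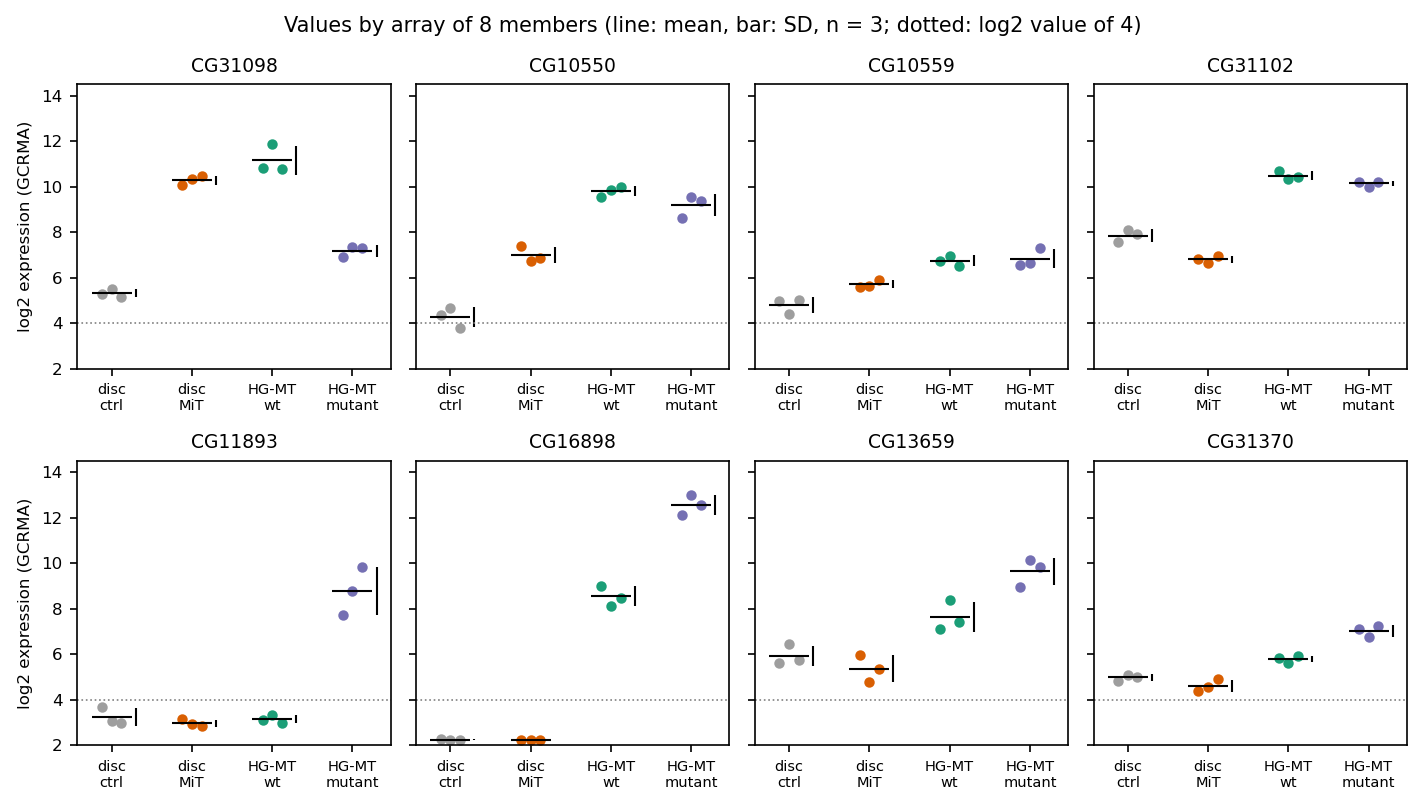
Log2 GCRMA expression (vertical axis) of 8 members on each array, by group (horizontal axis; ctrl, nub-Gal4 alone; MiT, labelled overexpression; HG-MT, hindgut-tubule; wt, wild type); lines are means, bars SD over 3 arrays, and the dotted line is the level of 4. CG31098 is high in labelled MiT discs and in wild-type hindgut-tubule samples and lower in the other groups, while CG11893 exceeds 4 in the mutant group only.

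In the hindgut-tubule samples, 6 members were higher and 7 were lower in MiT mutants than in wild type, and 20 did not pass. These 13 make up 39.4% of the tested members, beside 15.3% of all tested probe sets (8.09% higher and 7.21% lower). The shares are not like for like. Of the 33 members 32 were measured in these samples, whereas all tested probe sets include some that passed the filter through the discs alone. CG11893 passed it only through the mutant arrays and CG33510 only through the wild-type arrays, so their differences follow from the filter. At an unadjusted p under 0.05 there were 15 members, and the share of all tested probe sets at that level was not computed. The median change was -0.30 on the log2 scale, against 0.00 over all tested probe sets. The number of calls depends on the estimate of spread: in a fit to the 6 hindgut-tubule arrays alone, 5 members passed (3 higher, 2 lower), beside 4.02% of all tested probe sets. Those 5 were CG11893, CG16898, CG31370, CG31098 and CG31380. With the replicate number as a block, since same-numbered arrays deviated together, 4 members were higher and 8 lower, beside 18.9% of all tested probe sets.

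Among the members that rose, CG11893 read 3.11, 3.31 and 2.97 in wild type and 7.72, 8.78 and 9.82 in mutants. All wild-type arrays lay under the level of 4, as did all disc arrays, and the gene entered the test only through the mutant arrays, so it had to differ. It was at least 27.4-fold higher in mutants (limma adjusted p = 1.28e-05). In the 12 fits that left out 1 array each its adjusted p was at most 0.000127, but these fits kept the same filter and so give no separate support.

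CG16898 read 9.0, 8.13 and 8.49 in wild type and 12.13, 13.00 and 12.58 in mutants. Every mutant array exceeded every wild-type array by more than 3 log2 units, a 16.3-fold rise (log2 change 4.03, SE 0.24, limma adjusted p = 2.28e-06). In the discs the gene lay between 2.21 and 2.27. CG16898 is the one member of the family on chromosome arm 2R in the RefSeq table, apart from any block of relatives.

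CG13659 read 7.10, 8.37 and 7.43 in wild type and 8.97, 10.14 and 9.82 in mutants, a 4.03-fold rise (log2 change 2.01, SE 0.43, limma adjusted p = 0.0112). The groups did not overlap, array 2 was the highest of each, and the adjusted p was 0.074 in the fit to 6 arrays. CG31370 read 5.82, 5.62 and 5.90 against 7.09, 6.74 and 7.23, a 2.37-fold rise (log2 change 1.24, SE 0.17, limma adjusted p = 0.000858). CG6834 and CG13658 rose by less, 1.00 (adjusted p = 0.0416) and 0.43 (adjusted p = 0.0432). Neither passed with the replicate number as a block (adjusted p = 0.0533 for CG6834 and 0.0839 for CG13658). CG6834 passed in only 2 of 12 fits without 1 array, those without wild-type array 1 or mutant array 2, and CG13658 in 3, those without wild-type array 2 or mutant array 1 or 2.

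Among the members that fell, CG31098 read 10.83, 11.89 and 10.77 in wild type and 6.89, 7.33 and 7.31 in mutants. The groups were separated by more than 3 log2 units, a 15.8-fold fall (log2 change -3.98, SE 0.28, limma adjusted p = 6.82e-06). The mutant values remained above the control discs, at 5.15 to 5.5. CG31098 was the one member both higher in labelled MiT discs and lower in mutants, a pattern of 67 probe sets or 0.772% of all tested. No array is used by both comparisons, although the fit shares their variance, and the count was 1 in every alternative fit.

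CG31380 read 10.64, 10.54 and 10.46 in wild type and 9.12, 9.73 and 9.27 in mutants, a 2.26-fold fall (log2 change -1.18, SE 0.15, limma adjusted p = 0.000518). All mutant arrays lay under all wild-type arrays. CG33510 read 4.83, 7.01 and 4.50 in wild type, with array 2 far above the others, and 2.49, 3.46 and 3.61 in mutants. It was at least 2.73-fold lower (limma adjusted p = 0.0204), did not pass without mutant array 1 (adjusted p = 0.068) or in the fit to 6 arrays (adjusted p = 0.169), and entered the test only through the wild-type arrays.

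CG11878 read 9.06, 8.40 and 9.54 in wild type and 7.18, 8.09 and 8.24 in mutants, a 2.24-fold fall (log2 change -1.16, SE 0.30, limma adjusted p = 0.0282). The highest mutant array lay just under the lowest wild-type array, and the call was lost without wild-type array 1 or 3 or mutant array 1 (adjusted p up to 0.0934). CG31097 fell by 0.83 (adjusted p = 0.0102), CG6830 by 0.82 (adjusted p = 0.00539) and CG2004 by 0.43 (adjusted p = 0.0498). CG2004 passed only without mutant array 3 among the fits without 1 array, and its adjusted p with the block was 0.102. CG6830 and CG6834 are next to each other in the order of the members on 3R and share the family's Dro24 subgroup. Even so, CG6830 was lower and CG6834 higher in mutants.

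Changes of the 20 members that did not pass ran from -1.36 to 0.62. CG31102 (-0.34, adjusted p = 0.196), at 10.32 to 10.69 in wild type and at most 10.23 in mutants, and CG9259 (-0.72, adjusted p = 0.176) had the highest mean values of these over all 12 arrays, discs included. CG10550, which was higher in the labelled MiT discs, had a change of -0.62 in mutants (adjusted p = 0.194). CG31975 (-1.36, adjusted p = 0.0509) lay nearest to the threshold and passed with the block (adjusted p = 0.0279), as did CG32195 (-0.46, adjusted p = 0.0737 without and 0.0198 with the block). In 2 members 1 array stood alone: CG13360 read 2.68 on mutant array 1 against 6.78 and 6.99 on the others, and CG31300 read 2.57 on mutant array 2 against 5.61 and 4.74.

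**Figure D3:**
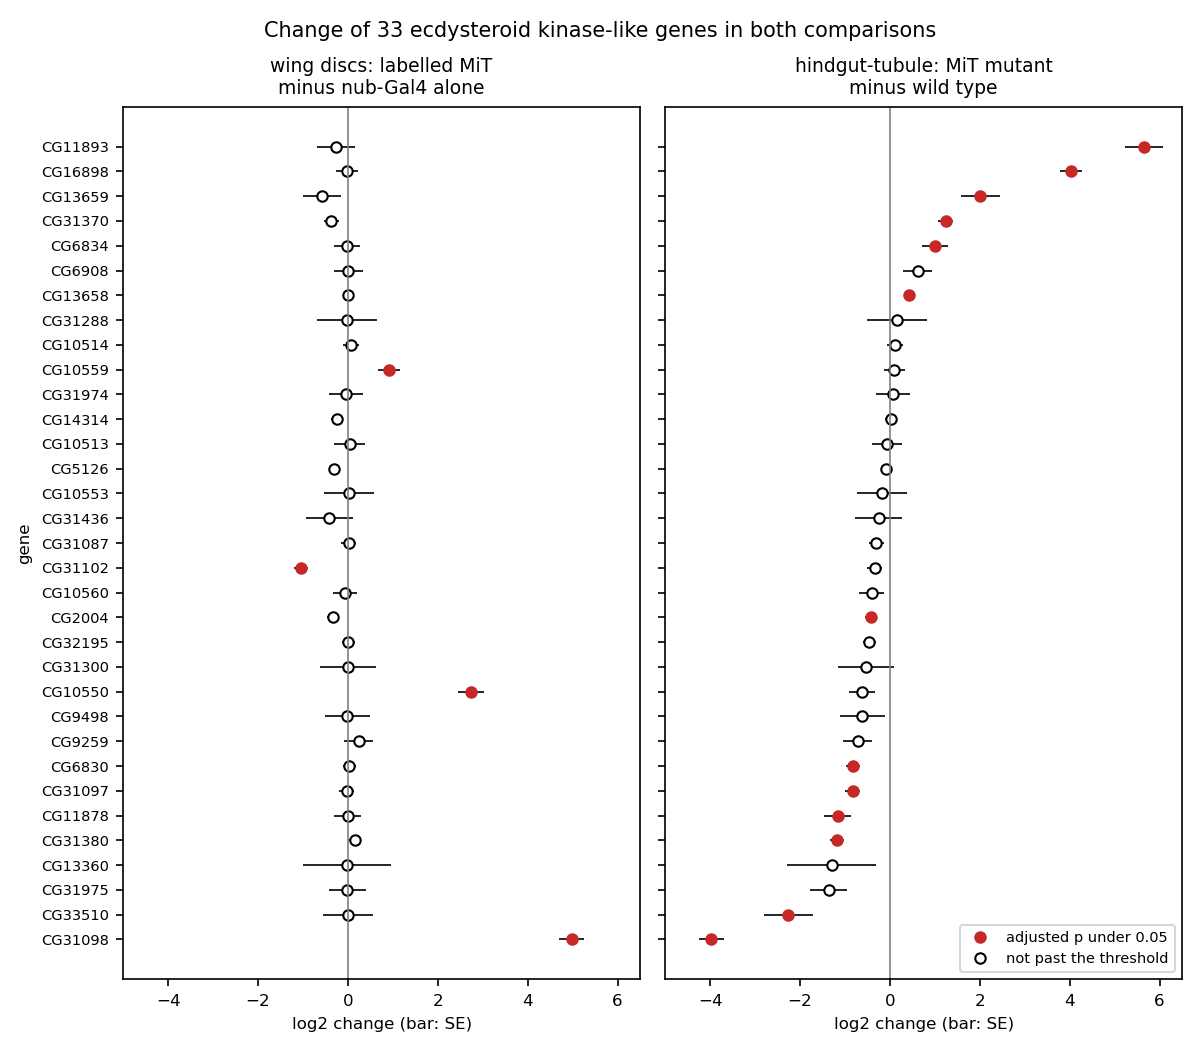
Fitted log2 change (horizontal axis, bars are SE) of the 33 tested members (rows) in labelled MiT discs against nub-Gal4 alone (left) and in MiT mutant against wild-type hindgut-tubule samples (right); filled points have an adjusted p under 0.05. The 4 filled points on the left and 13 on the right share CG31098 only, at 4.98 and -3.98.

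In the hindgut-tubule samples some members were highest or lowest on the same-numbered array of both groups. Array 2 was the highest array of both groups for 9 of the 32 members measured there, among them CG9498 (9.47, 11.42 and 10.06 in wild type; 9.42, 10.73 and 8.93 in mutants), CG31288 and CG10553. It was the lowest of both groups for 7, among them CG31436 (8.64, 7.67 and 8.90 in wild type; 8.96, 7.03 and 8.47 in mutants). For array 1 the counts were 2 and 4, and for array 3 they were 3 and 0. These counts were not made over all tested probe sets, where the number 2 arrays also deviated together (correlation 0.3782). They are therefore not read as particular to the members. The mean of 20 ecdysteroid receptor and response genes was lowest on array 2 of both groups as well, at 6.0 in wild type and 5.46 in mutants, against 6.20 to 7.13 on the other 4 arrays. The part of either pattern in the other was not tested. Without the number 2 arrays of both groups, 6 members were higher and 11 lower: CG2004 and CG6834 no longer passed, and CG10560, CG31087, CG31975, CG32195, CG6908 and CG9259 did, of which CG6908 was higher and the others lower.

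The members lie close together in the genome. In the gene order of the RefSeq table, used for order only because the files name no build, 23 of the 47 form 1 block on 3R that holds 24 protein-coding genes, the remaining gene being CG31099, of the same family. Neighbouring members of the block behaved differently. CG11893, CG31098 and CG31102 are consecutive in the order of the listed members, which leaves out CG31099. The first rose and the second fell in mutants, where the rise of CG11893 follows from the filter. The second rose and the third fell in labelled MiT discs, and the third had no call in mutants. Of the 18 tested members in the block, 3 were higher and 1 lower in the discs, and 4 were higher and 3 lower in mutants. Of the 15 tested members elsewhere, 0 passed in the discs, with changes from -0.34 (CG2004) to 0.24 (CG9259). In mutants 2 of these 15 were higher and 4 lower. Only CG2004, CG5126 and CG14314 of the 15 reached the level of 4 on at least 3 disc arrays. The rest of them lay under that level on every disc array, where values are not told apart from background. In the block, CG10550, CG10559, CG13659, CG31098, CG31102, CG31370 and CG31436 reached it. The disc counts inside and outside the block are therefore not like for like, and no conclusion is drawn from them.

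**Figure D4:**
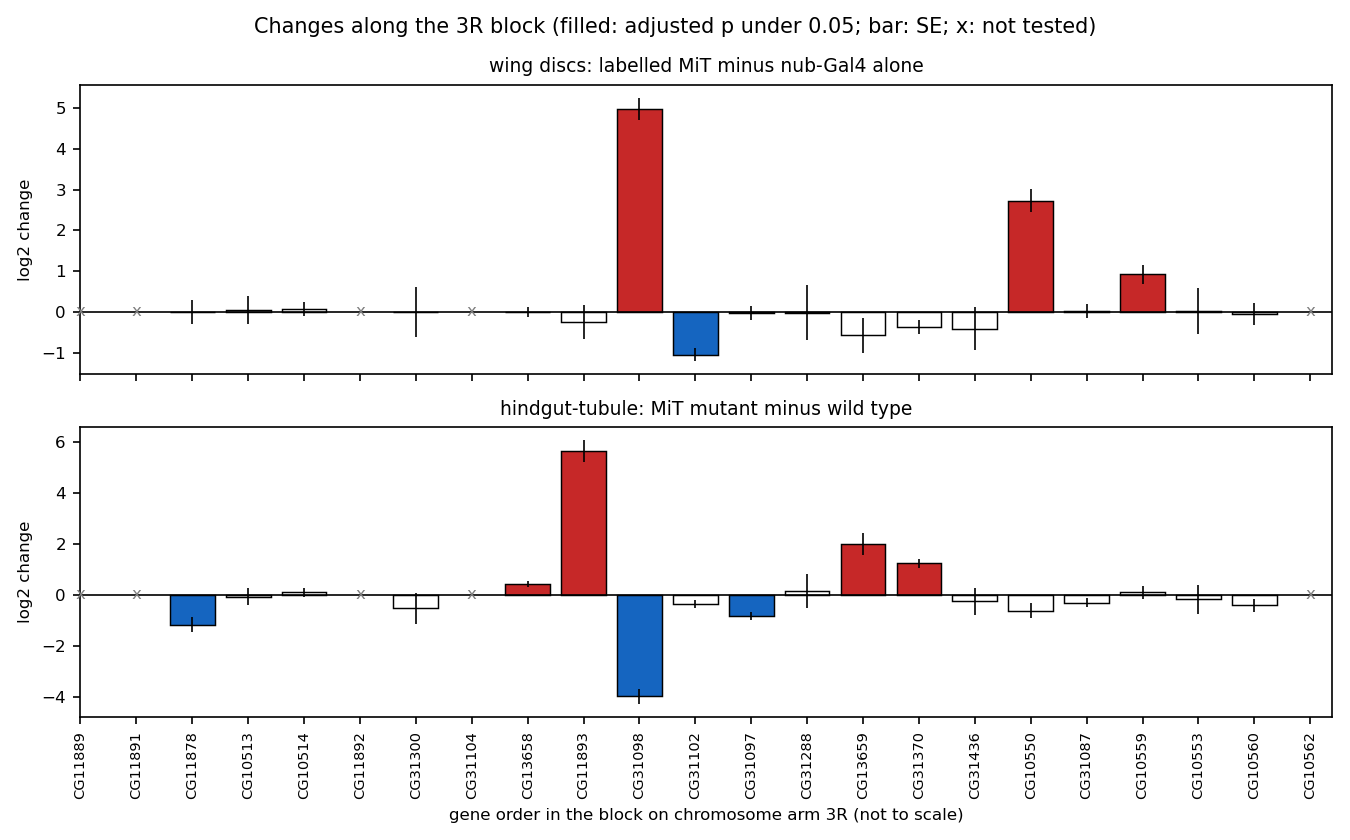
Fitted log2 change (vertical axis, bars are SE) of the 23 members of the 3R block in gene order (horizontal axis, not to scale), in discs (top) and hindgut-tubule samples (bottom); red and blue bars are higher and lower at an adjusted p under 0.05, open bars did not pass, and crosses have no tested probe set of their own. CG11893, CG31098 and CG31102 stand side by side with different patterns.

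RefSeq synonyms divide the family into numbered subgroups, of which Dro5 has the most members on the array. Dro5 genes have been linked to caffeine tolerance in this species. Of its 6 tested members, CG11893, CG13659, CG31370 and CG13658 were higher in mutants, 0 were lower, and CG31436 (-0.25, adjusted p = 0.822) and CG31300 (-0.53, adjusted p = 0.644) did not pass. Over all tested probe sets 8.09% were higher. CG11893 passed the filter only through the mutant arrays, CG13658 was lost in 9 of 12 fits without 1 array, and CG13659 did not pass in the fit to 6 arrays (adjusted p = 0.074). The subgroup was picked out after its values were seen and gets no test, and its members lie in the 3R block. In the labelled MiT discs none of the 4 passed: CG13659 had a change of -0.58 (adjusted p = 0.471), CG31370 of -0.37 (adjusted p = 0.207), CG11893 of -0.26 and CG13658 of 0.00.

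Close relatives were not always told apart by the array. The transcripts of CG11889 and CG11891 share 1 probe set, which read 10.68 ± 0.26 in wild-type and 11.09 ± 0.57 in mutant hindgut-tubule samples (SD, n = 3; adjusted p = 0.304). That of CG11892, which is annotated with a second symbol, read 14.38 ± 0.60 and 14.49 ± 0.65 (adjusted p = 0.886). Both lay between 2.14 and 2.39 on all disc arrays. CG33301, CG33509 and CG33511 were not analysed here.

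The RefSeq table holds 51 protein-coding genes with a family synonym, and the 4 outside the list are JhI-26, CG31099, CHKov1 and CHKov2. JhI-26, a juvenile hormone-inducible gene, read 2.36, 2.45 and 2.32 with the driver alone and 5.11, 5.16 and 4.26 in labelled MiT discs, a rise of at least 1.79-fold (limma adjusted p = 0.000385). In hindgut-tubule samples it read 11.38 to 11.52 in wild type and 11.42 to 12.55 in mutants (adjusted p = 0.267). CHKov2 did not pass in either comparison, and CG31099 stayed under the filter.

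CHKov1 has 3 probe sets that disagreed. The first read 12.28, 11.76 and 12.02 in wild type and 10.50, 9.64 and 10.35 in mutants, a log2 change of -1.86 (limma adjusted p = 0.000474). The second had a change of 0.68 (adjusted p = 0.0635). The third read 3.76, 2.74 and 2.66 in wild type and 6.34, 5.37 and 6.26 in mutants, at least 3.97-fold higher (limma adjusted p = 0.000245). In natural populations this gene is known to carry a polymorphic transposon insertion that alters its transcripts. Whether the wild-type and mutant larvae differed at it was not tested.

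Genes of ecdysteroid production and response were set beside the members, from lists chosen by function. Of 6 tested synthesis genes, spok (log2 change -4.21, adjusted p = 0.00289) and shd (-2.20, adjusted p = 0.0111), both encoding enzymes of ecdysteroid production, were lower in labelled MiT discs, and 0 changed in mutants. Control discs read 9.25, 6.98 and 8.70 for spok, which the prothoracic gland expresses. Labelled MiT discs read 4.07, 5.56 and 2.68 for it, and all hindgut-tubule arrays lay under 4. It passed the filter only with the control arrays, so its fall is not independent of the filter. All of the 4 turnover and transport genes, among them Eo, an ecdysone oxidase, and Epp, a phosphatase that acts on ecdysteroid phosphates, failed to pass in either comparison (adjusted p from 0.297 to 0.811 for Eo and Epp). Of 18 receptor and response genes, 1 was higher (ftz-f1, 2.62, adjusted p = 1.4e-05) and 5 were lower in labelled MiT discs, with a median change of -0.90. Of the 5, Blimp-1 reached the level of 4 on the control disc arrays alone, so its fall follows from the filter. In mutants 1 was higher and 0 lower. That 1 was ImpE2 (0.43, adjusted p = 0.0448), which lay under the level of 4 on all 6 hindgut-tubule arrays. The means of the response list ran from 8.23 to 8.68 in control discs and from 7.41 to 7.86 in labelled MiT discs, without overlap, and the part of this in the members' changes was not tested.

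Enzymes of the xenobiotic response were set beside the members as well, since toxins are known to induce several genes of both kinds. Of 26 enzymes, 8 were higher and 0 lower in labelled MiT discs, with a median change of 0.65. In mutants 8 were higher and 1 lower, with a median of 0.41. Of the 8, GstD5 reached the level of 4 on the mutant arrays alone, at 4.66 to 4.87, so its difference follows from the filter. The exception was the P450 gene Cyp12d1-d, which read 13.54, 12.88 and 13.31 in wild type and 3.51, 3.55 and 4.73 in mutants, at least 512-fold lower (limma adjusted p = 2.25e-08). It passed the filter only with its wild-type arrays, so a difference in this direction follows from the filter too. Cyp6a23 was higher in both comparisons (at least 3.54-fold, adjusted p = 1.25e-05, in discs; log2 change 0.88, adjusted p = 0.0156, in mutants), as were Cyp6d4 and Cyp9b2, the latter under the level of 4 in the discs. None of the 6 regulators of the response passed in either comparison. Of 18 genes of the lysosomal proton pump, whose genes MITF/TFE factors are known to regulate, 14 were higher and 0 lower in labelled MiT discs. Among the 18, 16 were lower and 1 was higher in mutants. Over all tested probe sets, 7.13% were higher in the discs, and 8.09% were higher and 7.21% lower in mutants.

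Marker lists for other tissues moved with the groups to differing degrees. Of 9 tested hemocyte markers, 5 were higher in labelled MiT discs, where the mean of the 10 listed ran from 6.43 to 7.08 against 5.5 to 6.21 in controls. Fat body markers varied within the labelled MiT discs, with means of 9.59, 6.31 and 3.77 on the 3 arrays, and in control discs with 9.28, 8.0 and 9.72. On the same 3 labelled arrays CG31098 read 10.08, 10.32 and 10.47, and CG10550 read 7.39, 6.73 and 6.87. Muscle markers, a list of 12, had means of 10.43 to 10.80 in control and 11.06 to 11.31 in labelled discs, without overlap, and 2 of the 10 tested were higher. In mutants 3 of the 10 were higher and 0 lower, with means of 10.65 to 11.21 against 10.41 to 10.67 in wild type. The 26 wing disc markers had means of 8.91 to 9.05 in control and 8.37 to 8.48 in labelled discs, again without overlap, and 8 of the 25 tested were lower and 0 higher. In mutants 1 was higher and 2 were lower. Salivary gland markers ranged from 2.97 to 10.93 in control and 3.18 to 8.5 in labelled discs. In the hindgut-tubule samples fat body markers read 12.31, 13.37 and 12.60 in wild type and 11.58, 13.30 and 13.29 in mutants, the ranges overlapping, and 1 of 8, Lip4, was higher in mutants. Tubule markers had means of 8.93 to 9.25 in wild type and 9.03 to 9.20 in mutants, against 4.08 to 4.36 in the discs. Of the 16 tested, 1 was higher and 1 lower in mutants. Hindgut markers had means of 7.77 to 8.25 in wild type and 7.68 to 8.29 in mutants, and 2 of 12 were higher and 1 lower in mutants. The part of other tissues in the members' changes was not tested.

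**Figure D5:**
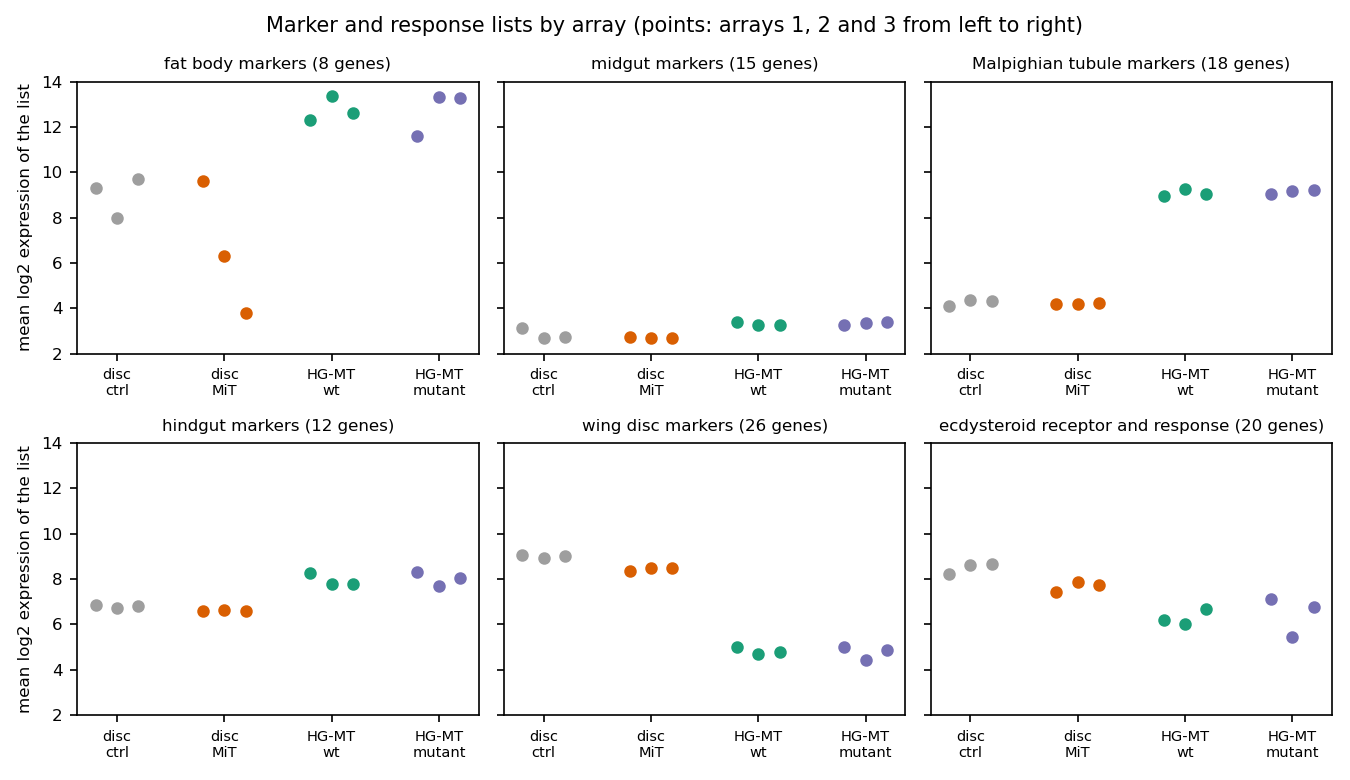
Mean log2 GCRMA expression (vertical axis) of 6 gene lists on each array, by group (horizontal axis; labels as for the values by array; points are arrays 1, 2 and 3 from left to right). Means of the midgut markers stay under 4 on all arrays, tubule markers separate the tissues, fat body markers spread widely among the discs, and the response list is lower in labelled MiT discs than in control discs.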

How the data were processed

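Total RNA was hybridised to Affymetrix Drosophila_2 arrays, per the labels' protocols. The deposited log2 expression values were made by the authors with GCRMA, a background correction and normalization across arrays, per the submitters' processing notes. Its version and the genome build are not given in the sources used here. The authors' deposited table of an analysis of variance gives step-up adjusted p-values and signed fold changes, per the file headers, and served as 1 alternative.

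Of 18952 probe sets, 183 controls were left out. Members were matched by the file's gene symbol; other genes were named through RefSeq accessions, and 3985 probe sets stayed unnamed. A minimum log2 value of 4, reached on 3 or more arrays, left 8678 probe sets. In R 4.3.3, limma 3.58.1 fitted 1 mean to each group over the 12 arrays together (lmFit, eBayes), and p-values were adjusted by Benjamini-Hochberg over all of them (threshold 0.05); the procedure was first tested on simulated data. The fit has 8 residual and 2.08 prior degrees of freedom, and the number of arrays limits the precision. Where a group mean lay under 4, a fold is at least the ratio against that level.

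Members with a called log2 change of 1 or more get values by array, those called with less their change and adjusted p, and the others a range with the 2 of highest mean. CG31975, CG32195, CG13360, CG31300, CG9498, CG31288, CG10553 and CG31436 were named after their values were seen. The members and lists were chosen with earlier results of these data known.

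Same-numbered hindgut-tubule arrays deviated together from their group means (correlations 0.2923, 0.3782 and 0.1416 for numbers 1, 2 and 3). The number, taken from the titles, was therefore used as a block in an alternative fit. The main fit has no block, so the main calls use no pairing. Among same-numbered disc arrays only those numbered 1 deviated together (0.3347, against -0.05381 and -0.1794 for numbers 2 and 3). The alternative fit blocked the discs by number as well. Other alternatives were fits to 6 arrays, other filters, moderation and centring, and leaving out arrays. No sequence is shown.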

Additional observations from a re-analysis of the deposited data

How the results depend on the processing

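The directions of all called members held under every alternative run. In the wing discs 1 member was lower in the 12-array fit, 3 in the fit to 6 arrays and 2 with the replicate block, without the filter, without both hindgut-tubule arrays numbered 2 (a setting chosen after seeing the data) and by the authors' deposited table, CG5126 being added in each. Higher members numbered 3, against 2 with the replicate block, without the filter and by the authors' deposited table, and 2 to 3 without 1 array, CG10559 being lost in each; lower ones 1 to 2, CG5126 being gained without array 2 of either hindgut-tubule group. In the hindgut-tubule samples 6 were higher, against 3 in the fit to 6 arrays, 3 by the authors' deposited table, 4 with the replicate block and 4 to 6 without 1 array. There 7 were lower, against 2 in the fit to 6 arrays, 4 without the filter, 11 without the number 2 arrays, 4 by the authors' deposited table, 8 with the replicate block and 4 to 9 without 1 array. Without mutant array 1 it was 4, CG11878, CG2004 and CG33510 being lost. CG9259 (adjusted p = 0.00589 at the lowest) and CG6908 (0.00489) passed only without wild-type array 2 among those fits, CG10560 (0.00455) only without mutant array 2, and CG31975 (0.00635) and CG32195 (0.0359) without either wild-type array 1 or mutant array 2. The replicate block changed no call in the hindgut-tubule samples beyond those of CG13658, CG2004, CG6834, CG31975 and CG32195. In the discs it lost CG10559 and gained CG5126. The counts between tissues were 29 and 3 in every fit without 1 array and with the replicate block, and 27 and 2 under the stricter filter, which tests fewer members. Over all settings, 54 of 259 checks of a called member in mutants no longer passed. The same held for 6 of 80 checks in the discs and 0 of 637 between tissues. Each member had 1 probe set, so averaging probe sets could change nothing. That setting is counted in these totals although its checks could not fail. Most calls between tissues, and those of CG11893 and CG33510 in mutants, follow from the filter. Checks of these calls that kept the filter give no separate support. Signals near background limit 23 members in the discs.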
